A study of Chlorocebus aethiops with 12 samples.

Results

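The cyclin-dependent kinase inhibitors of the CIP/KIP and INK4 families and the D cyclins were examined in COS-1 cells that carried a transfected glucocorticoid receptor. The set was named by 12 human transcript accessions of 9 genes, and its members were the non-control probes annotated with one of these accessions. The rule itself uses no measured value, but the list was drawn up with earlier results of these data known. Of the 12 accessions, 10 were on the array, against 32379 accessions on the array in all, and each of the 9 genes had at least 1 probe. NM_001262 (CDKN2C) and NM_079421 (CDKN2D) had no probe. The 10 accessions were carried by 16 probes. All 16 were well above background on each of the 12 arrays, none was saturated, and none was lost to the filter on dim probes. Gene names were those given with the list of accessions, because the array files pair no gene name with an accession.

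Passage through G1 is set by cyclin-dependent kinases CDK4 and CDK6, which need a D cyclin (CCND1, CCND2 or CCND3) as their partner, and by CDK2 with cyclin E. These kinases phosphorylate the retinoblastoma protein, which then releases E2F factors that switch on the genes of DNA replication. The INK4 proteins (CDKN2B, CDKN2C, CDKN2D) bind CDK4 and CDK6, and the CIP/KIP proteins (CDKN1A or p21, CDKN1B or p27, CDKN1C or p57) bind cyclin-CDK complexes more widely. Glucocorticoids slow the division of many cell types, and CDKN1C, CDKN1A and D cyclins are among the genes known to respond to them in other cells.

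Total RNA came from 4 groups with 3 biological replicates each. They were cells transfected with GR and MDFIC and given dexamethasone (Dex), cells transfected with GR and MDFIC and given vehicle, cells transfected with GR alone and given Dex, and cells transfected with GR alone and given vehicle. All groups carried transfected GR, the receptor that Dex, a synthetic glucocorticoid, activates; MDFIC is a MyoD family inhibitor domain protein. Serum in the medium was charcoal-stripped from the day after transfection, and Dex (100 nM) or vehicle was added 48 h after transfection for 6 h. COS-1 is a fibroblast-like line from African green monkey kidney that carries the large T antigen of SV40, a protein that binds the retinoblastoma protein and p53. The share of cells that took up the plasmids is not given in the sources used here, no group without GR was analysed, and the RNA is of whole cultures, in which fewer cells with a transcript and less transcript per cell cannot be told apart. Neither the transfected genes nor markers of the cell line were checked, since the files name no genes.

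The arrays were printed on 3 slides. Slide 1 held the 3 GR vehicle arrays and GR Dex replicate 1, slide 2 held GR Dex replicates 2 and 3 and GR+MDFIC vehicle replicates 1 and 2, and slide 3 held the 3 GR+MDFIC Dex arrays and GR+MDFIC vehicle replicate 3. Slide 3 was read on another scanner, and its spots were extracted with another release of the Feature Extraction software. Both changed together with the slide, so the part of each was not tested. The 75th percentile signals of slide 3 were 365 to 412, against 797 to 914 on slide 1 and 757 to 947 on slide 2. A Dex effect could therefore be taken within 1 slide, on slide 3 in GR+MDFIC cells (3 Dex arrays and 1 vehicle array) and on slide 1 in GR cells (1 Dex array and 3 vehicle arrays). No slide held both arms of a comparison between GR+MDFIC and GR cells. The probes were designed to human transcripts, so a level can also depend on how well the monkey RNA matches the probe, and a lower signal of one probe than of another is not read as less transcript. Levels below are log2 signals relative to the 75th percentile of the same array, where 0 is a signal equal to that percentile.

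Within 6 h of Dex, CDKN1C rose and CDKN1A and CDKN2D fell, in GR+MDFIC cells and in GR cells. In GR+MDFIC cells 1 of the 10 accessions rose and 3 fell (limma with Benjamini-Hochberg adjustment, adjusted p under 0.05), where 13.5% of the 23757 accessions tested passed, 6.63% upward and 6.90% downward. In GR cells 1 rose and 2 fell, where 7.10% of all accessions passed, 4.37% upward and 2.73% downward. The median log2 fold of the 10 was -0.15 in GR+MDFIC cells and -0.11 in GR cells, beside -0.01 and 0.01 over all accessions tested. The largest member effects were 0.45 and -0.44 in GR+MDFIC cells and 0.48 and -0.37 in GR cells, on the log2 scale. Of the 4 CIP/KIP accessions, 1 rose and 2 fell in GR+MDFIC cells, and 1 rose and 1 fell in GR cells. Of the 3 INK4 accessions, 1 fell in each, and of the 3 D cyclin accessions none passed in either, although single probes of CCND1 and CCND2 did. Under alternatives, CCND3 passed in GR+MDFIC cells with median scaling (log2 fold -0.19, limma adjusted p = 0.0492), and CCND2 passed in GR cells without the arrays of slide 2 (0.71, limma adjusted p = 0.0483), where GR Dex replicate 1 is the only Dex array. CCND1 passed in both kinds of cell with the mean of its probes and with normexp and quantile normalization. In the latter setting another of its probes, A_23_P202837, stood for the gene in place of A_24_P193011. All members were read on the same arrays, so their values are not independent of each other.

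**Figure D1:**
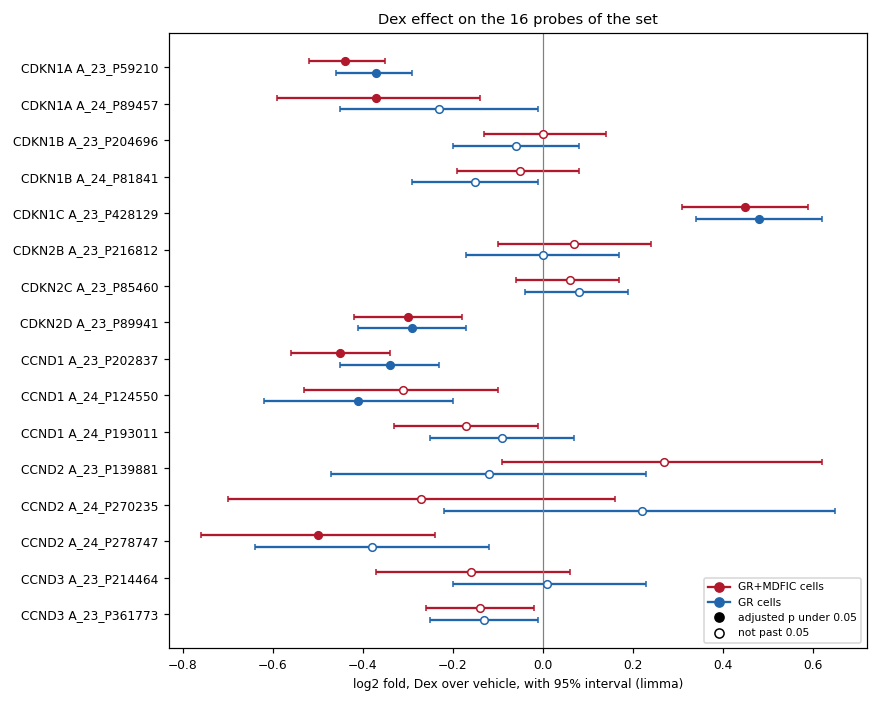
Log2 fold (Dex over vehicle) of the 16 member probes in GR+MDFIC cells and in GR cells, with 95% confidence intervals from the limma fit in which each probe is its own feature; filled points have an adjusted p under 0.05 in that fit. CDKN1C is above 0 in both kinds of cell, at 0.45 and 0.48, and the CDKN1A probe of NM_000389 is below 0 in both, at -0.44 and -0.37.

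CDKN1C (p57), the CIP/KIP inhibitor that glucocorticoids are known to induce in human cells, rose 1.36-fold in GR+MDFIC cells and 1.39-fold in GR cells. Its probe for NM_000076 read 5.28, 5.47 and 5.38 in GR+MDFIC Dex arrays, against 4.95, 5.0 and 4.84 in GR+MDFIC vehicle arrays. It read 5.56, 5.47 and 5.51 in GR Dex arrays, against 5.03, 5.0 and 5.08 in GR vehicle arrays. Every Dex array was above every vehicle array in both kinds of cell, as was so for 32.1% of all accessions in GR+MDFIC cells and 26.2% in GR cells, counting either direction. The log2 fold was 0.45 ± 0.06 (SE, limma adjusted p = 0.00157) in GR+MDFIC cells and 0.48 ± 0.06 (limma adjusted p = 0.00135) in GR cells. Within a slide it was 0.54 on slide 3 and 0.52 on slide 1. The call held under 27 of 27 alternative settings in GR+MDFIC cells, with adjusted p between 0.000255 and 0.0496. In GR cells it held under 27 of 28, and without the arrays of slide 2 the adjusted p was 0.0519.

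CDKN1A (p21), a target of p53 and the founding member of its family, moved the opposite way. The probe of NM_000389, printed at 10 places on each array, read 1.70, 1.74 and 1.75 in GR+MDFIC Dex arrays, against 2.14, 2.19 and 2.17 in GR+MDFIC vehicle arrays. It read 1.56, 1.58 and 1.54 in GR Dex arrays, against 1.93, 1.96 and 1.90 in GR vehicle arrays. The groups did not overlap, as was so in either direction for 32.1% of all accessions in GR+MDFIC cells and 26.2% in GR cells. The distance between the groups was many times the SD within a group, which was 0.02 to 0.03. The level was 1.35-fold lower with Dex in GR+MDFIC cells (log2 fold -0.44 ± 0.04, limma adjusted p = 6.55e-05) and 1.30-fold lower in GR cells (-0.37 ± 0.04, limma adjusted p = 0.000248). Within slides 3 and 1 it was again -0.44 and -0.37. No alternative setting ended either call, of 27 in GR+MDFIC cells and 28 in GR cells.

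A dimmer probe for the other CDKN1A transcript, NM_078467, read -2.11, -2.33 and -2.39 in GR+MDFIC Dex arrays, against -2.00, -1.84 and -1.90 in GR+MDFIC vehicle arrays. It read -2.10, -2.34 and -2.45 in GR Dex arrays, against -2.04, -2.03 and -2.13 in GR vehicle arrays, where replicate 1 of the Dex group lay among the vehicle arrays. This accession fell in GR+MDFIC cells (log2 fold -0.37 ± 0.10, limma adjusted p = 0.0399) and did not pass in GR cells (-0.23 ± 0.10, limma adjusted p = 0.249). The call in GR+MDFIC cells held under 13 of 27 alternatives, with adjusted p from 0.0126 to 0.222. Within slides the values were -0.38 on slide 3 and -0.03 on slide 1. Both accessions are of 1 gene, so they are not separate evidence.

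**Figure D2:**
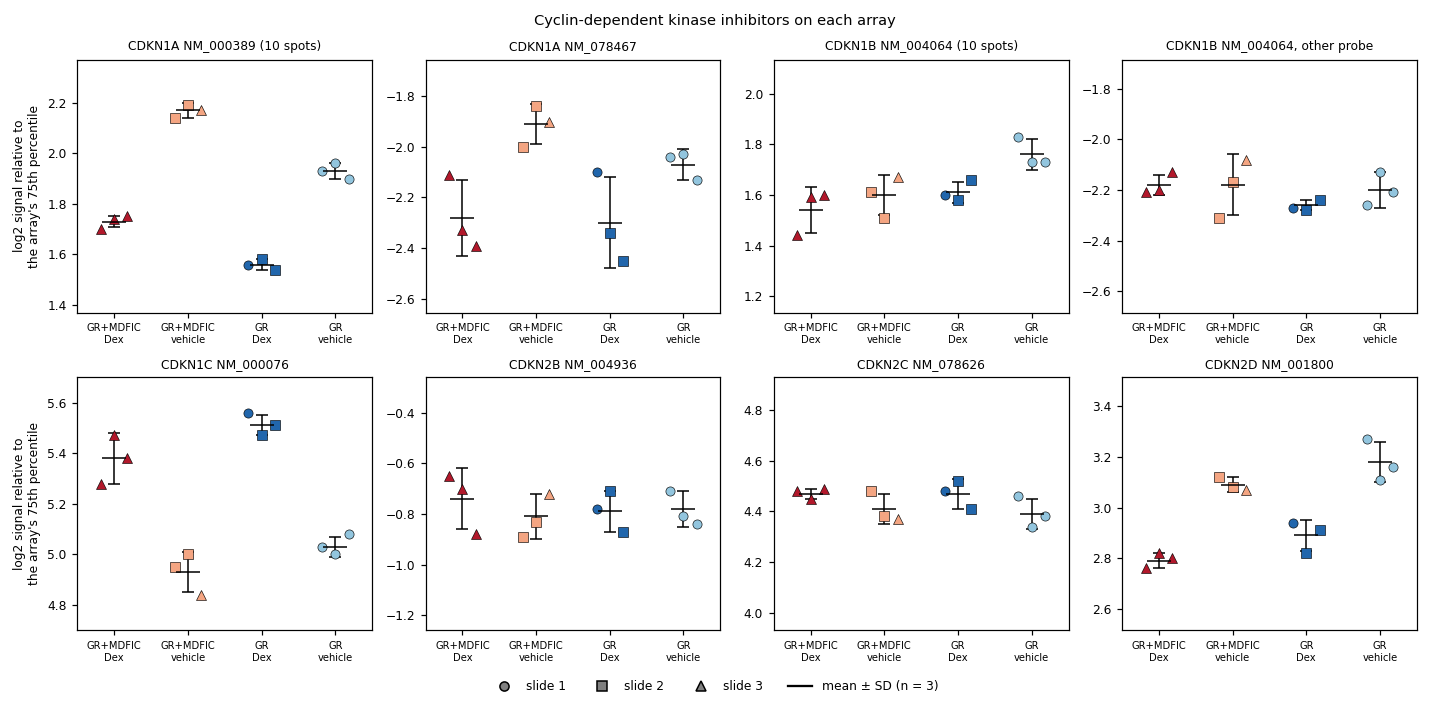
Levels of the kinase inhibitor probes on each array (log2 signal relative to the array's 75th percentile), with the 4 groups in the order GR+MDFIC Dex, GR+MDFIC vehicle, GR Dex and GR vehicle. Points are arrays, their shapes mark the slide, bars are the group mean ± SD (n = 3), and each panel has its own vertical range. CDKN1C is higher in both Dex groups, at 5.28 to 5.56, against 4.84 to 5.08 in both vehicle groups.

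CDKN1B (p27), whose level is held down in dividing cells largely by destruction of the protein, passed in neither comparison. Its probe printed at 10 places read 1.44, 1.59 and 1.60 in GR+MDFIC Dex arrays, against 1.61, 1.51 and 1.67 in GR+MDFIC vehicle arrays, and these groups overlapped. It read 1.60, 1.58 and 1.66 in GR Dex arrays, against 1.83, 1.73 and 1.73 in GR vehicle arrays. These did not overlap, as was so for 26.2% of all accessions in GR cells. The log2 fold was -0.05 ± 0.06 in GR+MDFIC cells (limma adjusted p = 0.577) and -0.15 ± 0.06 in GR cells (limma adjusted p = 0.208). A second probe gave 0.00 and -0.06. The 95% interval in GR cells was -0.29 to -0.01. For the CDKN1A probe of NM_000389 it was -0.46 to -0.29 about -0.37, and for NM_078467 it was -0.45 to -0.01 about -0.23. A difference between the genes was not tested.

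Among the INK4 inhibitors, CDKN2D (p19) fell with Dex in both kinds of cell. Its level was 2.76, 2.82 and 2.80 in GR+MDFIC Dex arrays, against 3.12, 3.08 and 3.07 in GR+MDFIC vehicle arrays. It was 2.94, 2.82 and 2.91 in GR Dex arrays, against 3.27, 3.11 and 3.16 in GR vehicle arrays. No Dex array reached the lowest vehicle array of its own kind of cell. Groups were free of overlap, in either direction, for 32.1% of all accessions in GR+MDFIC cells and 26.2% in GR cells. The log2 fold was -0.30 ± 0.05 in GR+MDFIC cells (limma adjusted p = 0.00532) and -0.29 ± 0.05 in GR cells (limma adjusted p = 0.00807). The direction held within slides, at -0.28 on slide 3 and -0.24 on slide 1, but with slide as a block the adjusted p was 0.119 and 0.161.

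CDKN2B (p15), which TGF-beta is known to induce, and CDKN2C (p18) did not pass. CDKN2B lay between -0.89 and -0.65 on all 12 arrays, with log2 folds of 0.07 ± 0.08 in GR+MDFIC cells (95% interval -0.10 to 0.24) and 0.00 ± 0.08 in GR cells (-0.17 to 0.17). CDKN2C lay between 4.34 and 4.52, with log2 folds of 0.06 ± 0.05 in GR+MDFIC cells (-0.06 to 0.17) and 0.08 ± 0.05 in GR cells (-0.04 to 0.19). In this fit, which has no slide term, the intervals of both genes leave out a fall of the size seen in CDKN2D. With slide as a block the log2 fold of CDKN2B was -0.03 ± 0.11 in GR+MDFIC cells and 0.00 ± 0.11 in GR cells. That of CDKN2C was 0.10 ± 0.08 and 0.08 ± 0.08. Whether such a fall is left out with the slide block was not tested.

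CCND1 was measured by 3 probes that did not give 1 answer. The probe with the highest mean level, A_24_P193011, stood for the gene and read 0.62, 0.46 and 0.40 in GR+MDFIC Dex arrays, against 0.69, 0.74 and 0.55 in GR+MDFIC vehicle arrays. It read 0.48, 0.52 and 0.44 in GR Dex arrays, against 0.59, 0.63 and 0.49 in GR vehicle arrays. The groups overlapped in both kinds of cell, with log2 folds of -0.17 ± 0.07 in GR+MDFIC cells (limma adjusted p = 0.139) and -0.09 ± 0.07 in GR cells (limma adjusted p = 0.576).

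The CCND1 probe printed at 10 places, A_23_P202837, gave a fall in both. It read 0.27, 0.15 and 0.17 in GR+MDFIC Dex arrays, against 0.59, 0.68 and 0.68 in GR+MDFIC vehicle arrays. It read 0.32, 0.26 and 0.20 in GR Dex arrays, against 0.58, 0.62 and 0.61 in GR vehicle arrays. No Dex array overlapped a vehicle array. Counted by accession, groups did not overlap for 32.1% in GR+MDFIC cells and 26.2% in GR cells. With each of the 30179 kept probes as its own feature, this probe was 1.37-fold lower with Dex in GR+MDFIC cells (log2 fold -0.45 ± 0.05, limma adjusted p = 0.000349) and 1.27-fold lower in GR cells (-0.34 ± 0.05, limma adjusted p = 0.00244). Within slides it was -0.48 on slide 3 and -0.29 on slide 1.

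The third CCND1 probe, A_24_P124550, read -1.45, -1.59 and -1.32 in GR+MDFIC Dex arrays, against -1.23, -1.22 and -0.97 in GR+MDFIC vehicle arrays, and did not pass there (log2 fold -0.31 ± 0.09, limma adjusted p = 0.0573). It read -1.46, -1.33 and -1.43 in GR Dex arrays, against -1.13, -0.96 and -0.91 in GR vehicle arrays, and fell (-0.41 ± 0.09, limma adjusted p = 0.0308). All 3 probes were lower with Dex in both kinds of cell, and the choice of probe decides whether the gene is called. With the mean of the 3 probes CCND1 passed in both, at -0.31 in GR+MDFIC cells (limma adjusted p = 0.00287) and -0.28 in GR cells (limma adjusted p = 0.00680). Which parts of the transcript the probes match was not analysed here.

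**Figure D3:**
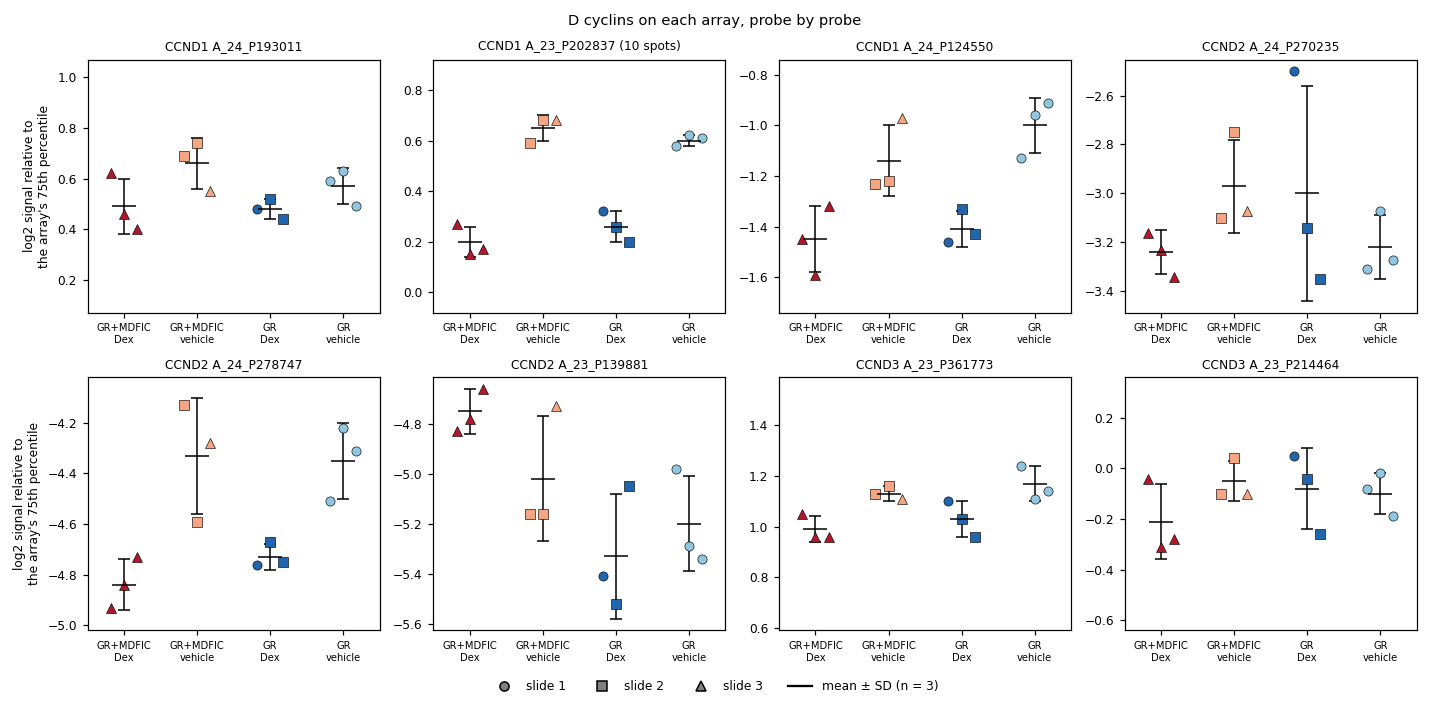
Levels of the 8 D cyclin probes on each array (log2 signal relative to the array's 75th percentile), with the 4 groups in the order GR+MDFIC Dex, GR+MDFIC vehicle, GR Dex and GR vehicle. Points are arrays, their shapes mark the slide, bars are the group mean ± SD (n = 3), and each panel has its own vertical range. The ten-place CCND1 probe A_23_P202837 is at 0.15 to 0.32 in the Dex groups, against 0.58 to 0.68 in the vehicle groups.

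CCND2 also differed between its 3 probes. Its brightest probe, A_24_P270235, read -3.16, -3.23 and -3.34 in GR+MDFIC Dex arrays, against -3.10, -2.75 and -3.07 in GR+MDFIC vehicle arrays, and did not pass (log2 fold -0.27 ± 0.19, limma adjusted p = 0.365). In GR Dex arrays it read -2.50, -3.14 and -3.35, against -3.31, -3.07 and -3.27 in GR vehicle arrays. Replicate 1 of the GR Dex group, at -2.50, was the highest of the 12 arrays, and without it the log2 fold in GR cells was -0.03 in place of 0.22 ± 0.19 (limma adjusted p = 0.638). Within slide 1, where that array is the only Dex array, the value was 0.71.

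The probe A_24_P278747 of CCND2 read -4.93, -4.84 and -4.73 in GR+MDFIC Dex arrays, against -4.13, -4.59 and -4.28 in GR+MDFIC vehicle arrays, and fell (log2 fold -0.50 ± 0.12, limma adjusted p = 0.0211, probe by probe). In GR Dex arrays it read -4.76, -4.67 and -4.75, against -4.51, -4.22 and -4.31 in GR vehicle arrays, and the log2 fold of -0.38 ± 0.12 did not pass (limma adjusted p = 0.0910). Its processed signals were 12 to 49, against 365 or more at the 75th percentile of any array. The remaining probe, A_23_P139881, did not pass (0.27 in GR+MDFIC cells and -0.12 in GR cells), and its 4 arrays on slide 3 read -4.83 to -4.66, above the 8 other arrays at -5.52 to -4.98. The part of the slide in that probe's levels was not tested.

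CCND3 did not pass. Its brighter probe read 1.05, 0.96 and 0.96 in GR+MDFIC Dex arrays, against 1.13, 1.16 and 1.11 in GR+MDFIC vehicle arrays, and 1.10, 1.03 and 0.96 in GR Dex arrays, against 1.24, 1.11 and 1.14 in GR vehicle arrays. The Dex arrays were below the vehicle arrays in both kinds of cell. Groups free of overlap, in either direction, were found for 32.1% of all accessions in GR+MDFIC cells and 26.2% in GR cells. The log2 fold was -0.14 ± 0.05 in GR+MDFIC cells (limma adjusted p = 0.109) and -0.13 ± 0.05 in GR cells (limma adjusted p = 0.205). Within slides this probe gave -0.12 on slide 3 and -0.06 on slide 1. The second probe gave -0.16 and 0.01. Counted probe by probe, 1 of the 16 member probes rose and 5 fell in GR+MDFIC cells, where 12.9% of all probes passed (6.30% upward, 6.59% downward), and 1 rose and 4 fell in GR cells, where 6.70% passed (4.14% upward, 2.56% downward). Some of these falls repeat a gene, CDKN1A in GR+MDFIC cells and CCND1 in GR cells. Probes of 1 gene are not separate evidence.

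**Figure D4:**
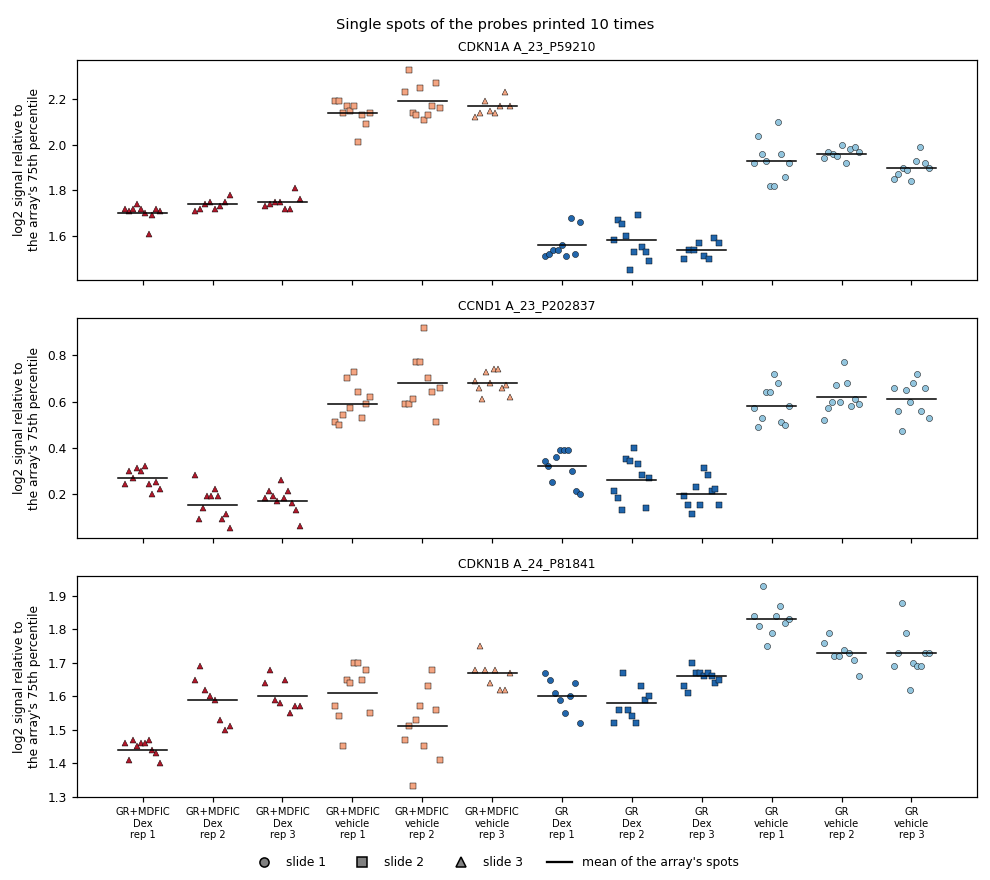
Single spots of the 3 member probes printed at 10 places (CDKN1A, CDKN1B and CCND1) on each array, as log2 signal relative to the array's 75th percentile, with the 4 groups in the order GR+MDFIC Dex, GR+MDFIC vehicle, GR Dex and GR vehicle. Shapes mark the slide and lines the mean of an array's spots. The SD among the spots of a probe on 1 array is 0.02 to 0.12, and spots of 1 array are not replicates of a condition.

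For these 3 probes, the SD among the spots of 1 array was 0.02 to 0.12 on the log2 scale. It describes the reading of an array and not the spread between cultures. Of 516 member spots on the 12 arrays, 23 carried an outlier flag and were left out.

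The Dex effect was then compared between the kinds of cell, as GR+MDFIC minus GR. None of the 10 accessions passed in limma, and 0.0589% of all accessions did. At an unadjusted p under 0.05 the count was also 0 of the 10, beside 2339 of the 23757 accessions tested. The difference was -0.03 for CDKN1C (95% interval -0.23 to 0.16), -0.06 for CDKN1A NM_000389 (-0.18 to 0.05) and -0.01 for CDKN2D (-0.17 to 0.16). It was -0.11 for the ten-place CCND1 probe (-0.26 to 0.05). The intervals leave room for a change of the Dex effect of up to 0.23 on the log2 scale for CDKN1C. The widest interval was that of CCND2, -1.10 to 0.13 about -0.49, the least precise of the 10. Over the alternatives the CCND2 difference was -0.89 to -0.07. Its other probes gave 0.39 (A_23_P139881) and -0.12 (A_24_P278747).

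CDKN1A NM_000389 was higher in GR+MDFIC cells than in GR cells. With Dex the log2 difference was 0.17 ± 0.04 (limma adjusted p = 0.0360), where 5.59% of accessions passed, 2.65% upward, and with vehicle it was 0.23 ± 0.04 (limma adjusted p = 0.0230), where 0.846% passed, 0.564% upward. The arrays of GR+MDFIC cells did not overlap those of GR cells under the same treatment, as was so for 32.1% of accessions with Dex and 22.2% with vehicle. The compared groups lie on different slides, so no value within a slide can be given. With slide as a block the differences were 0.17 (limma adjusted p = 0.763) and 0.24 (limma adjusted p = 0.407), and the calls held under 12 of 26 alternatives with Dex (adjusted p 0.0182 to 0.763) and 16 of 27 with vehicle (0.00839 to 0.407). None of the other 9 accessions passed in either comparison. Their log2 differences were between -0.24 and 0.05 with Dex and between -0.16 and 0.24 with vehicle.

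Ordered by group mean, CDKN1A was highest in GR+MDFIC vehicle arrays (2.17 ± 0.03, SD, n = 3), then GR vehicle (1.93 ± 0.03), GR+MDFIC Dex (1.73 ± 0.02) and GR Dex (1.56 ± 0.02), and no neighbours in that order overlapped. CDKN1C was highest in GR Dex arrays (5.51 ± 0.04), then GR+MDFIC Dex (5.38 ± 0.10), GR vehicle (5.03 ± 0.04) and GR+MDFIC vehicle (4.93 ± 0.08), and only the step from Dex to vehicle groups was free of overlap. CDKN2D was 3.18 ± 0.08 in GR vehicle, 3.09 ± 0.03 in GR+MDFIC vehicle, 2.89 ± 0.06 in GR Dex and 2.79 ± 0.03 in GR+MDFIC Dex arrays. Both vehicle groups of CDKN2D overlapped. Its Dex groups did not, although both include 2.82 after rounding, as groups with Dex did not for 32.1% of all accessions.

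The accessions whose levels most resembled those of CDKN1A NM_000389, the member of smallest adjusted p, were NM_015428 (Pearson r = 0.980) and NM_004073 (r = 0.977) over the 12 arrays. The next had r = 0.973. The 12 points share the 4 groups and the 3 slides, so the correlations describe these arrays only. NM_015428 fell with Dex by 0.49 in GR+MDFIC cells and by 0.33 in GR cells, and NM_004073 fell by 0.56 and by 0.55, on the log2 scale. Both were picked by their likeness to CDKN1A on these same arrays, so their fall with Dex is not separate evidence. Neither accession carries a gene name here.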

How the data were processed

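Per the file headers and labels, the authors hybridised Cy3-labelled cRNA to 1-colour Agilent arrays and extracted spot intensity with Agilent Feature Extraction version 12. The release within that version differed between slide 3 and the other slides. The deposited processed intensity is background-corrected by Feature Extraction, and the deposited flags (outlier, saturated, well above background) are the authors' as extracted. Here log2 of the processed intensity was reduced by each array's 75th percentile over non-control spots without outlier flags, flagged spots were left out, and the spots of a probe were averaged. Kept probes had to be well above background in every array of some group (3 arrays) and unflagged in 2 or more arrays of each group, leaving 30179 of 41000 probes. The probe of highest mean stood for its accession. Group means of all 12 arrays were fitted with limma 3.58.1 in R 4.3.3 (8 residual degrees of freedom), with Benjamini-Hochberg adjustment over 23757 accessions and calls at adjusted p under 0.05. The script was tested on simulated data in which few accessions changed, for Dex in GR cells. It recovered 57.0% of changes of 0.5 and 74.0% of changes of 1 on the log2 scale. With 3 arrays a group, the number of arrays limits the precision.

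Full values were given for the called members, CDKN1C and CCND1. Probe values of CDKN1B, CCND2 and CCND3 were added after the data were seen. The members and lists were chosen with earlier results of these data known. A G1/S gene list, cell line markers, the levels of the transfected genes and sequences had been planned and were not analysed here, since the files name no genes. Alternatives were other scaling, background correction, filters, probe rules, slide and replicate blocks, fits of only 2 groups, and each array left out. Leaving out the arrays of slide 2 or of slide 3 was added after seeing the data. The settings share arrays, and the deposited series table, also counted, held the same values. A count of settings is therefore not a count of separate checks.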

Additional observations from a re-analysis of the deposited data

How the results depend on the processing

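CDKN1A NM_000389 kept its Dex calls under every alternative run. Members called with Dex numbered 2 in GR+MDFIC cells with slide as a fixed block and without the arrays of slide 2 (added after seeing the data), against 4. Counted by probe, with every probe its own feature, 6 of the 16 member probes passed in GR+MDFIC cells and 5 in GR cells. Of all probes, 12.9% and 6.70% passed. Members in GR+MDFIC cells numbered 5 with median scaling and with the mean of an accession's probes. They numbered 3 with only the 2 groups compared and without the filter on dim probes. In GR cells, against 3, they numbered 2 with slide as a fixed block and with only the 2 groups compared. They numbered 4 there with the mean of probes and with normexp and quantile normalization. Leaving out 1 array gave 3 to 4 in GR+MDFIC cells and 3 in GR cells. The 1 member called for MDFIC, CDKN1A, became 0 under median scaling, without the filter on dim probes, with slide as a fixed block and with only the 2 groups compared, with Dex and with vehicle alike. It was also 0 with Dex under slide as a random block, and with vehicle under the replicate block and without the arrays of slide 3. Leaving out 1 array gave 0 to 1 in each. The cause was not tested.

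Values near 0 changed sign. CDKN2B in GR+MDFIC cells was -0.04 under normexp with quantile normalization and -0.03 with the slide block or without slide 2. In GR cells it was 0.00 with either slide block and without slide 2, and -0.04 to 0.04 with 1 array left out. CCND2 in GR cells was -0.10 with the mean of its probes and -0.03 to 0.39 with 1 array left out. The difference of the Dex effects was 0.02 for CDKN1C and 0.03 for CCND1, both with the slide block and without slide 2. With 1 array left out it was -0.08 to 0.02 for CDKN1C and -0.05 to 0.03 for CDKN2D.

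Over all accessions, calls for Dex numbered 643 (without slide 2) to 6287 (without GR+MDFIC vehicle replicate 3) in GR+MDFIC cells, against 3216, and 663 (without slide 2) to 2022 (every probe) in GR cells, against 1687. Calls for MDFIC numbered 49 (slide block) to 3111 with Dex, against 1328, and 33 (only 2 groups) to 558 with vehicle, against 201. Calls for the difference numbered 2 (without GR Dex replicate 3) to 1798, against 14. The upper values for MDFIC and for the difference are without GR+MDFIC vehicle replicate 3.

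The replicate numbers are not stated to pair arrays. Correlations of deviations between same-numbered Dex and vehicle arrays were -0.097 to 0.023 in GR+MDFIC cells and -0.005 to 0.06 in GR cells. No array of 6 correlated best with its own number in GR+MDFIC cells, and 4 of 6 did in GR cells. With replicate as a block 4 and 3 members were called for Dex, 1 for MDFIC with Dex and 0 with vehicle (CDKN1A, limma adjusted p = 0.0526). The deposited series table held the same values and changed no result. Slide 3 had the lowest signals; what they limit for each member was not tested.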
